A study of Mus musculus with 48 samples.

Results

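Vaults are barrel-shaped ribonucleoprotein particles of the cytoplasm, and 3 mouse genes encode their protein components: Mvp, Tep1 and Parp4. The 3 were picked by symbol out of 47069 genes in a deposited table of read counts, and each symbol belonged to 1 gene identifier. They were followed in mice that lack 1 copy of part of band 7qF3 on chromosome 7, and in wild-type controls. Mvp lies inside the missing segment. Tep1 and Parp4 lie outside it, on chromosome 14.

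The study sequenced RNA from cortex, striatum and cerebellum of 16 mice, 8 heterozygous for the deletion and 8 wild type, to ask how losing the interval that corresponds to human 16p11.2 alters expression in each tissue. Every mouse gave 1 library per tissue, which makes 48 libraries in 6 groups of 8. Each group held 4 males and 4 females. All animals, controls included, were on the mixed C57BL/6N:129Sv background. No age can be given: the age field of the labels holds a date, and it separates the animals exactly as sex does, so that sex and date cannot be told apart. The labels name no agent and no treatment.

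The major vault protein, encoded by Mvp, forms the shell of the particle and makes up most of its mass. Tep1 encodes telomerase-associated protein 1, which binds the small vault RNA and was also found with telomerase. Parp4 encodes a poly(ADP-ribose) polymerase that sits in the vault and can modify the major vault protein. What vaults do is not settled: they have been linked to intracellular transport, drug resistance and signalling, and Mvp in visual cortex to synaptic plasticity.

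Mvp (ENSMUSG00000030681) spans chromosome 7, 126986860 to 127014621 (GRCm38), on the minus strand. Its 27.8 kb hold 15 exons, and its principal transcript has 2837 bases with a GC content of 57.9%. Tep1 (ENSMUSG00000006281) spans chromosome 14, 50824059 to 50870560, on the minus strand. Its principal transcript is the longest of the 3, with 8171 bases in 55 exons and a GC content of 53.7%. Parp4 (ENSMUSG00000054509) spans chromosome 14, 56575619 to 56659794, on the plus strand, and its principal transcript has 6387 bases in 35 exons and a GC content of 48.1%. Of the 3 principal transcripts, that of Mvp is therefore the shortest and has the highest GC content.

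Some reads may be shared with overlapping genes. Mvp shares 346 exon bases with Pagr1b on the same strand, which had 0 counts in the table. Tep1 shares 144 exon bases with the antisense gene Gm26782, which had 10611 counts over all libraries against 17580 for Tep1. Parp4 shares 335 exon bases with the antisense gene Gm16573, which had 0 counts. Whether the authors' counting used strand is not given in the sources used here, so the Tep1 values are uncertain to that extent.

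Promoters are shown to set the gene inside the deletion beside one whose product joins the same particle from outside it. The 250 bases before the RefSeq start were taken from RefSeq (GRCm38.p6), which matched 2 of the 3 genes, Mvp and Parp4. The Mvp window is chr7:127014595-127014844 on the minus strand, with a GC content of 57.2%, and the Parp4 window is chr14:56575369-56575618 on the plus strand, with 54.4%. The median over 32851 windows of the same length was 52.4%. Capitals mark every match to the motifs described after them.
Mvp: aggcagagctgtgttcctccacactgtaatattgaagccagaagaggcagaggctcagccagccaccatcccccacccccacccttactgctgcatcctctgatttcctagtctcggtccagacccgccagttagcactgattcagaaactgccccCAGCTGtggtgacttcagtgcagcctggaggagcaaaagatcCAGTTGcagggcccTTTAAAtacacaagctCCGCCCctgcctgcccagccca
Parp4: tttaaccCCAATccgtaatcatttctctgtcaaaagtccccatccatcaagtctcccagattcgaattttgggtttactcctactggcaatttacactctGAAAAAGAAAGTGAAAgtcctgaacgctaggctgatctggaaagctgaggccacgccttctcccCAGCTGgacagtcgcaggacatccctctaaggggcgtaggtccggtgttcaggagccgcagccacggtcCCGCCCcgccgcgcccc

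The search covered both strands for 7 motifs, which were chosen after the sequences had been seen. They were the GC box, written GGGCGG, the CCAAT box, the E-box, written CANNTG, the interferon gamma activated site, written TTCNNNGAA, the interferon-stimulated response element, which is GAAA, any 2 bases and again GAAA, the TATA box, written TATAAA, and a TATA-like variant, written TTTAAA. Positions count back from -1, the base before the start. The Mvp window holds 1 GC box on the opposite strand, from -22, E-boxes from -94 and -52, and the TATA-like variant from -38. The Parp4 window holds 1 GC box on the opposite strand, from -17, a CCAAT box from -243 and an E-box from -86. It also holds matches to the interferon-stimulated response element from -150 and -144, which overlap each other. Of all windows, 32.7% hold the GC box, 33.8% the CCAAT box, 66.2% the E-box, 12.1% the TATA-like variant and 2.98% the interferon-stimulated response element. The TATA box (12.4% of windows) and the interferon gamma activated site (7.02%) occur in neither window. A match is a description of the letters and not a site.

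Library depth, as the sum of gene counts, was 29244745 to 60751792 with a median of 32232112. Levels are given as CPM, counts scaled to a library total of 1000000, on library sizes corrected by edgeR's TMM method. The 3 genes are of modest abundance, with 112 to 1752 counts each in any single library. The tissue labels were checked against marker genes. Cerebellar neuron markers summed to 1316 to 5107 CPM in the cerebellum libraries and to at most 539 CPM elsewhere. Cortical neuron markers summed to 1319 to 1954 CPM in cortex and to at most 1118 CPM in striatum. Striatal neuron markers did not separate the libraries labelled striatum, with summed levels of 281 to 6783 CPM, from those labelled cortex, with 249 to 3711 CPM. By rules on marker levels, which were set for cortex and striatum only, 10 libraries stood apart. These were 7 cortex libraries with low striatal markers (3 deletion and 4 wild type), 1 deletion striatum library with more thalamic than striatal marker signal, and 2 wild-type striatum libraries with high choroid plexus markers. Results are given with and without these 10 where they matter. The 7 cortex libraries had mean log2 striatal marker levels of 3.46 to 5.73. The cortex libraries that were kept had 6.73 to 7.90, within the striatum range of 3.91 to 8.90. The cortex rule is relative to the cortex median and does not say which libraries hold purer cortex. No cerebellum library could be set apart. There, cerebellar neuron markers had a mean log2 level of 6.54 in deletion animal D809, where the lowest wild-type library had 8.02. Choroid plexus markers in cerebellum summed to 223 to 7260 CPM in deletion and 169 to 16222.5 CPM in wild type.

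Mvp fell to less than the wild-type range in all 3 tissues of the deletion animals, while Tep1 and Parp4 did not pass the test in any. In cortex, Mvp was at 4.64 CPM in the lowest deletion library, 5.75 at the median and 8.27 in the highest. The wild-type cortex libraries ran from 8.94 CPM through a median of 12.5 to 16.3. The highest deletion library was thus below the lowest wild-type library. The means were 6.04 ± 1.36 and 12.5 ± 2.12 CPM (SD, n = 8), so the deletion mean was 48.4% of the wild-type mean.

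In striatum, Mvp ran from 4.53 CPM through a median of 5.27 to 8.04 in the deletion libraries, and from 8.34 through 10.5 to 18.3 in the wild-type libraries. The groups again did not overlap, although the gap was narrow. The means were 5.62 ± 1.18 and 11.7 ± 3.45 CPM (SD, n = 8), the former 48.1% of the latter. In cerebellum, where Mvp was most abundant, the deletion libraries ran from 12.1 CPM through 17.2 to 22.5 and the wild-type libraries from 29.3 through 41.8 to 52.5. Here the gap between the groups was the widest, and the means of 17.2 ± 3.77 and 41.7 ± 9.14 CPM (SD, n = 8) put deletion at 41.3% of wild type. In bulk tissue, fewer cells that express a gene and less RNA per cell cannot be told apart.

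**Figure D1:**
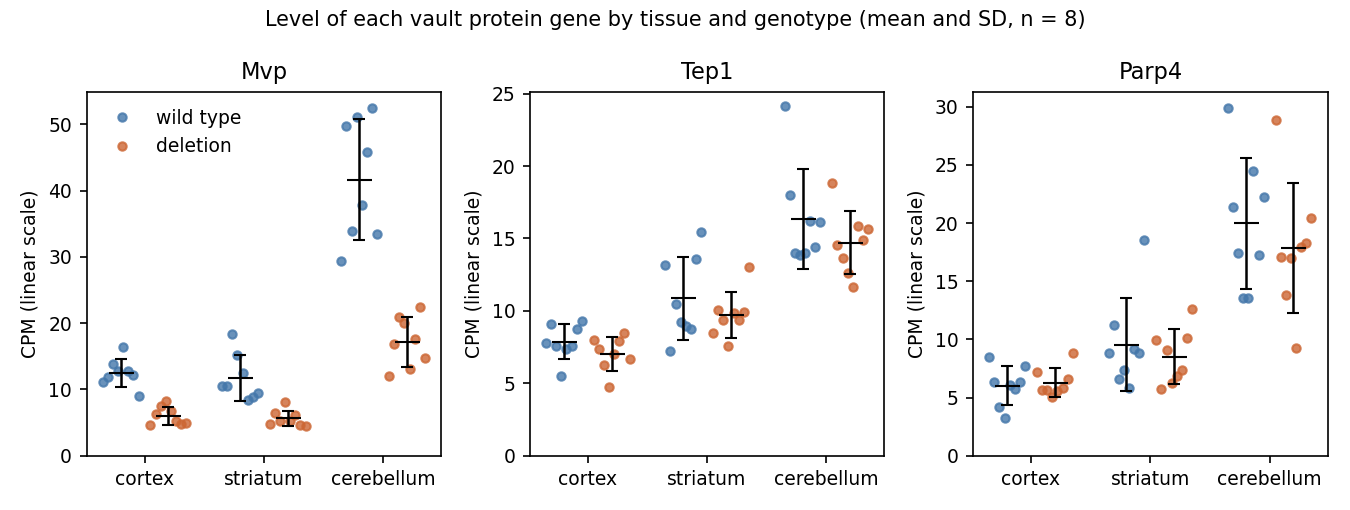
Level of Mvp, Tep1 and Parp4 in CPM on a linear scale, by tissue, for 8 wild-type and 8 deletion libraries; each point is 1 library, and the bars give the mean and SD. Mvp in deletion libraries lies below every wild-type library of the same tissue, for example at most 8.27 against at least 8.94 CPM in cortex, while the Tep1 and Parp4 points of both genotypes overlap.

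Genotypes were compared within each tissue by edgeR's quasi-likelihood test with sex as a covariate. The log2 fold change is deletion relative to wild type, and a gene is called where the Benjamini-Hochberg adjusted p over all genes tested is under 0.05. The log2 fold change of Mvp in cortex was -1.05 ± 0.16 (SE; 95% interval -1.38 to -0.72; edgeR adjusted p = 0.00598). In striatum it was -1.05 ± 0.16 (-1.39 to -0.70; edgeR adjusted p = 0.00968). The cerebellum gave -1.28 ± 0.17 (-1.64 to -0.93; edgeR adjusted p = 0.00159). A value of -1, the loss of 1 of 2 equal copies, lies within all 3 intervals. Of the 3 vault genes, 1 was called lower in each tissue, where the share of all tested genes called lower was 0.119% in cortex, 0.116% in striatum and 0.126% in cerebellum. The call ended in cortex without the 7 libraries low in striatal markers (-0.73 ± 0.17; edgeR adjusted p = 0.579) and in striatum without the 2 libraries high in choroid plexus markers (-0.98 ± 0.19; adjusted p = 0.101). It also ended in each sex alone, with 4 animals a group (adjusted p of 0.374 to 0.99995). The share of all tested genes in which every deletion library lay below every wild-type library was 0.107%, 0.105% and 0.096%. A 2-sided exact permutation test on log2 CPM gave p = 0.0001554 for Mvp in each tissue, the smallest that 8 against 8 allows, and 0.0004662 after adjustment over the 9 tests of 3 genes in 3 tissues.

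Tep1 did not pass the test in any tissue. In cortex it ran from 4.77 CPM through a median of 7.20 to 8.47 in deletion and from 5.53 through 7.69 to 9.31 in wild type. In striatum the corresponding values were 7.60, 9.60 and 13.0 against 7.23, 9.87 and 15.5 CPM. In cerebellum they were 11.7, 14.7 and 18.8 against 13.8, 15.3 and 24.1 CPM. The genotypes overlapped in every tissue. The log2 fold changes were close to one another, -0.16 ± 0.12 in cortex (95% interval -0.41 to 0.09), -0.17 ± 0.15 in striatum (-0.48 to 0.15) and -0.16 ± 0.12 in cerebellum (-0.42 to 0.11), each with an edgeR adjusted p of at least 0.965.

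Parp4 did not pass the test either. Its deletion libraries ran from 5.08 CPM through a median of 5.72 to 8.81 in cortex, and its wild-type libraries from 3.28 through 6.21 to 8.52. In striatum the values were 5.71, 8.24 and 12.6 against 5.86, 8.82 and 18.5 CPM. In cerebellum they were 9.28, 17.5 and 28.9 against 13.5, 19.4 and 29.9 CPM. Again the genotypes overlapped in every tissue, and its SD was larger than that of Tep1 in every group, at 1.22 to 5.63 against 1.17 to 3.48 CPM. The log2 fold changes were 0.06 ± 0.17 in cortex (95% interval -0.30 to 0.42), -0.17 ± 0.22 in striatum (-0.63 to 0.29) and -0.18 ± 0.20 in cerebellum (-0.60 to 0.25), with edgeR adjusted p of at least 0.967. For Tep1 and Parp4, -1 lies outside every one of these intervals. The exact permutation p of these 2 genes, adjusted over the 9 tests, lay between 0.506 and 0.623.

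**Figure D2:**
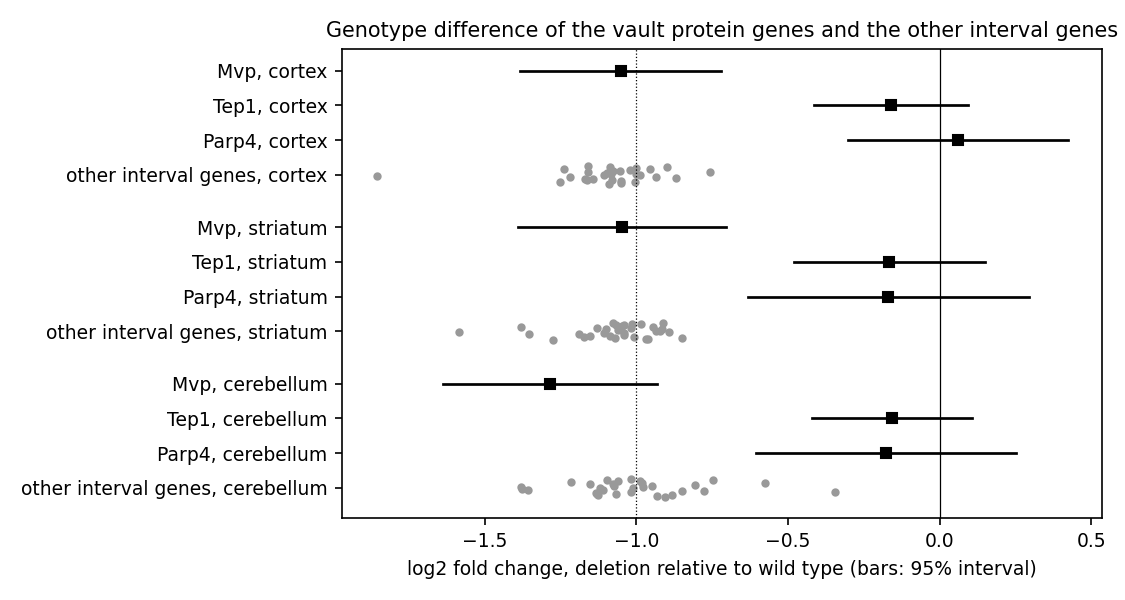
Log2 fold change of deletion relative to wild type for Mvp, Tep1 and Parp4 in each tissue (squares, with 95% intervals), and for the other tested genes of the deleted interval (grey points, no intervals drawn). The solid line marks 0 and the dotted line -1; Mvp (-1.05, -1.05 and -1.28) lies among the other interval genes, and the intervals of Tep1 and Parp4 include 0.

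The fall of Mvp was compared with that of the genes around it. Taken from Slx1b to Mylpf, the interval covers chromosome 7, 126689468 to 127214298 (GRCm38). Of its tested genes, 30 in cortex, 33 in striatum and 32 in cerebellum, 20, 20 and 21 were called lower, with median log2 fold changes of -1.08, -1.05 and -1.04. Counted from the lowest value, Mvp was number 18 of 30 in cortex, 17 of 33 in striatum and 4 of 32 in cerebellum.

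The nearest tested neighbours on both sides of Mvp also had negative values in each tissue, although not all passed the test. Cdipt, the phosphatidylinositol synthase gene, was at -1.08 ± 0.13 in cortex, -1.01 ± 0.12 in striatum and -1.13 ± 0.12 in cerebellum on the log2 scale (edgeR adjusted p = 0.00095, 0.00052 and 0.000184). Sez6l2, a neuronal membrane protein gene and the next tested gene on that side in cortex and cerebellum, had -1.02 ± 0.08 and -0.98 ± 0.10 (adjusted p = 1.73e-06 and 7.88e-05). In striatum the next tested gene was Cdiptos, antisense to and overlapping Cdipt, with -1.17 ± 0.32 (adjusted p = 0.634). On the other side, Gm42742, a predicted gene, had -1.86 ± 0.28 in cortex (adjusted p = 0.0078), -1.04 ± 0.26 in striatum (adjusted p = 0.4656) and -1.36 ± 0.32 in cerebellum (adjusted p = 0.313). Beyond it, the zinc finger factor gene Maz had -1.16 ± 0.13 in cortex and -1.02 ± 0.13 in striatum (adjusted p = 0.000217 and 0.000907), and Prrt2, a presynaptic protein gene, had -1.15 ± 0.49 in cerebellum (adjusted p = 0.9997). Gm42742 and Prrt2 overlap on the same strand, so their single values are uncertain. Their levels were also low, with deletion and wild-type means of 0.27 and 0.94 CPM for Gm42742 in cortex. For Prrt2 in cerebellum the means were 0.26 and 0.63 CPM. The standard errors of Mvp, 0.16 to 0.17, were larger than those of Cdipt in each tissue.

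Whether the fall of Mvp differed between tissues was tested in 1 edgeR fit of all 48 libraries. The log2 fold change in striatum minus that in cortex was 0.01 ± 0.23. For cerebellum minus cortex it was -0.22 ± 0.23 (95% interval -0.69 to 0.24), and for cerebellum minus striatum -0.24 ± 0.23 (-0.70 to 0.23). The unadjusted p over the 3 tissues was 0.519 for Mvp, 0.999 for Tep1 and 0.676 for Parp4, and 0.393, 0.985 and 0.401 with the animal as a block. None of the 3 genes was called, and the share of genes called was 0% of 18531. The larger fall in cerebellum was therefore not separable from the spread between animals, and intervals of this width do not show that the falls are equal.

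Mvp was low in deletion animals of both sexes. Cortex Mvp averaged 6.67 ± 1.58 CPM in deletion males and 12.4 ± 1.14 in wild-type males, and 5.41 ± 0.87 in deletion females and 12.6 ± 3.03 in wild-type females (SD, n = 4). In striatum the values were 6.12 ± 1.44 and 13.6 ± 3.81 CPM in males and 5.12 ± 0.72 and 9.77 ± 1.84 CPM in females. In cerebellum they were 17.4 ± 3.99 and 41.0 ± 11.0 CPM in males and 17.0 ± 4.14 and 42.3 ± 8.47 CPM in females. No sex showed overlap between the genotypes in any tissue. The difference of the log2 fold change between the sexes was -0.34 ± 0.31 in cortex, 0.20 ± 0.33 in striatum and -0.08 ± 0.34 in cerebellum. None of the 3 vault genes was called for such a difference, and neither was any other gene (0%), with 1.52%, 1.1% and 0.558% of genes at an unadjusted p under 0.05 in cortex, striatum and cerebellum. The smallest unadjusted p among the 3 genes was 0.288.

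All 3 genes were highest in cerebellum. In wild-type animals Mvp was 1.73 ± 0.17 higher in cerebellum than in cortex and 1.84 ± 0.17 higher than in striatum on the log2 scale (edgeR adjusted p = 1.87e-08 and 9.91e-09). Its levels in striatum and cortex differed by -0.11 ± 0.17 (95% interval -0.46 to 0.24; edgeR adjusted p = 0.700), which did not pass the test. Parp4 was 1.73 ± 0.23 higher in cerebellum than in cortex and 1.07 ± 0.22 higher than in striatum (adjusted p = 1.11e-06 and 0.000352). For Tep1 the same differences were 1.05 ± 0.16 and 0.59 ± 0.15 (adjusted p = 5.55e-06 and 0.00288). Tissue differences were common: 24.2% of genes were called higher in cerebellum than in cortex and 22.4% higher than in striatum, so 3 of 3 is read against shares of that size.

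Between striatum and cortex, Tep1 was 0.46 ± 0.16 and Parp4 0.66 ± 0.22 higher in striatum (edgeR adjusted p = 0.0396 and 0.0420), where 9.95% of genes were called higher. Both calls were lost without the libraries that stood apart, where the differences were 0.25 ± 0.19 and 0.26 ± 0.21 (adjusted p = 0.636 and 0.671), and also without a filter on low counts (adjusted p = 0.0799 and 0.0696). Cerebellum was therefore above the other 2 tissues for each gene. The calls between striatum and cortex depended on the filter and on the libraries that stood apart. Leaving out those libraries cannot settle this difference, because it makes the groups smaller and keeps the wild-type cortex libraries highest in striatal markers. Those kept had mean log2 striatal marker levels of 6.73 to 7.28, and the 4 left out 3.46 to 4.93.

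Levels of different genes were compared per kilobase of the principal transcript. In wild-type libraries, Mvp averaged 4.40 CPM per kilobase in cortex, 4.12 in striatum and 14.7 in cerebellum. Parp4 averaged 0.944, 1.495 and 3.13 CPM per kilobase, and Tep1 0.963, 1.33 and 2.001. Of the 3 genes, that of the shell protein thus had the highest mean on this scale in each wild-type tissue. The ratio of Mvp to Tep1, taken library by library on this scale, was 4.73 ± 1.32 (SD, n = 8) in wild-type cortex, 3.33 ± 1.31 in striatum and 7.67 ± 2.32 in cerebellum. In deletion libraries it was 2.62 ± 1.13, 1.73 ± 0.60 and 3.45 ± 0.94. The ratio of Mvp to Parp4 was 5.17 ± 2.14, 3.24 ± 1.75 and 5.12 ± 2.01 in wild type, and 2.28 ± 0.83, 1.65 ± 0.74 and 2.37 ± 0.81 in deletion. Between the other 2 genes, Parp4 to Tep1, the ratio was 0.973 ± 0.216, 1.15 ± 0.434 and 1.55 ± 0.232 in wild type, and 1.16 ± 0.253, 1.12 ± 0.2496 and 1.52 ± 0.285 in deletion, so it was close to 1 except in cerebellum.

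These ratios depend on which length is used. Mvp has 7627 bases in the union of its annotated exons, Tep1 9568 and Parp4 6534. With these lengths, the ratio of Mvp to Tep1 was 2.06 in wild-type cortex and 1.14 in deletion cortex, and the ratio of Mvp to Parp4 was 1.97 and 0.869. Mvp then stands below Parp4 in the deletion groups, at 0.627 in striatum and 0.903 in cerebellum, and below Tep1 in deletion striatum, at 0.755. The mean wild-type ratios of Mvp to both other genes stay above 1 with either length. With the union lengths, the lowest wild-type library had a ratio of Mvp to Parp4 of 0.991 in cortex, 0.436 in striatum and 0.838 in cerebellum. For Mvp to Tep1 the lowest was 1.21, 0.763 and 1.52.

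**Figure D3:**
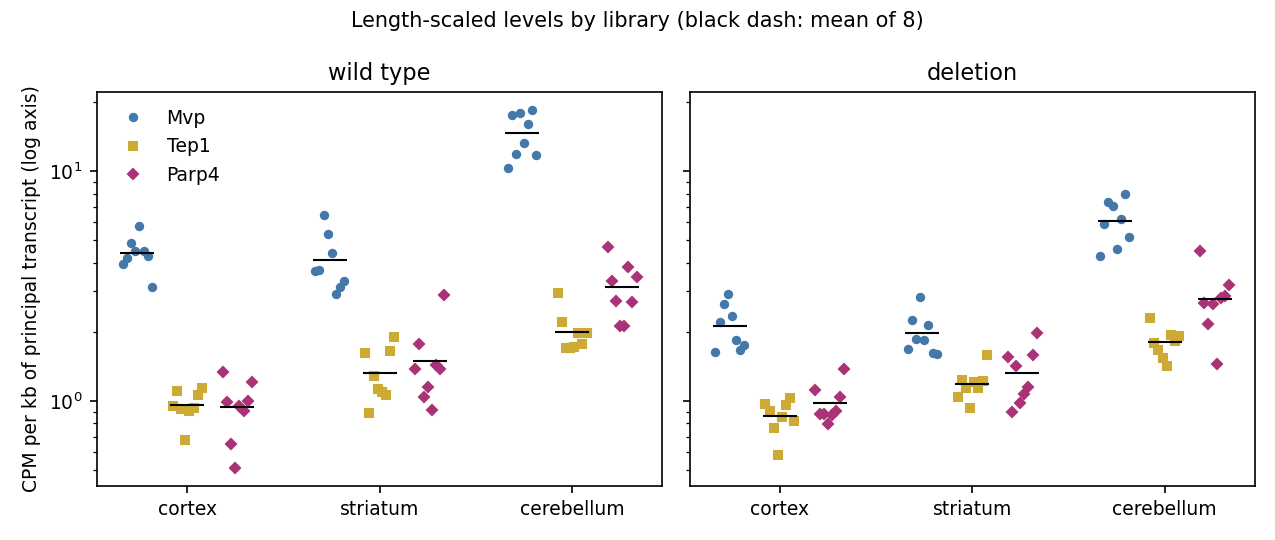
Level of the 3 genes in CPM per kilobase of the principal transcript, on a log axis, by tissue and for wild type (left) and deletion (right); each point is 1 library and each dash the mean of 8. Mvp stands above the other genes in wild type (means of 4.40, 4.12 and 14.7 in cortex, striatum and cerebellum) and comes closer to them in deletion.

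The vault genes also varied between animals of the same group, and they did so in opposite directions. Group means were subtracted from log2 CPM, and the deviations were compared over the 48 libraries. The deviations of Tep1 and Parp4 had a Pearson correlation of 0.62, while Mvp had -0.45 with Tep1 and -0.49 with Parp4. Without the 10 libraries that stood apart the values were 0.50, -0.42 and -0.47. The points share animals across tissues, and genes of a library share its depth and composition, so these are descriptions.

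The genes whose deviations were most like those of each vault gene were found among 15046 genes with a mean of at least 1 CPM. For Mvp these were Trabd, Pcbp4, Chkb, Spsb2 and Deaf1, with correlations of 0.90 to 0.92, and the most opposite were Tanc2 (-0.91) and D130043K22Rik (-0.90). Tep1 was most like Cdc14b, Slc38a1, Tnrc6a, Thada and Peg3 (0.76 to 0.78), and most opposite to Rpa2 (-0.78) and Rps2 (-0.77). Parp4 was most like Fam214a, Slc4a4, Atp11a, Agap1 and Frem2 (0.87 to 0.88), and most opposite to Myl12b (-0.88) and Shisa5 (-0.87). Gene length separated these sets. The 100 genes most like Mvp had a median transcript length of 2042 bases and the 100 most opposite 6224, where the median of all was 3380 bases, taking the longest annotated transcript of each gene. For Tep1 the medians were 6552 and 1742 bases, and for Parp4 7566 and 2015. GC content went the other way, with medians of 56.0% and 44.2% for Mvp, 47.5% and 55.7% for Tep1, and 46.5% and 53.4% for Parp4.

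A length score was therefore computed for each library, from deviations of log2 CPM from the tissue mean of both genotypes together. The score is the mean deviation of the shortest 25% of 13850 protein-coding genes minus that of the longest 25%. The interval and the vault genes were left out. Within groups, Mvp correlated with the length score at 0.76, Tep1 at -0.67 and Parp4 at -0.79 (Pearson, n = 48). By tissue the values were 0.90, 0.90 and 0.50 for Mvp in cortex, striatum and cerebellum, -0.63, -0.54 and -0.87 for Tep1, and -0.76, -0.80 and -0.82 for Parp4 (n = 16 each). A GC score made in the same way gave 0.78, -0.65 and -0.77 over all libraries. The correlation was positive for the vault gene with the shortest transcript and negative for the other 2. The scores, however, use the longest annotated transcript, which for Mvp has 4822 bases and a GC content of 49.7%. The medians of all compared genes were 3380 bases and 49.8%, so by that measure Mvp is neither short nor rich in GC.

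**Figure D4:**
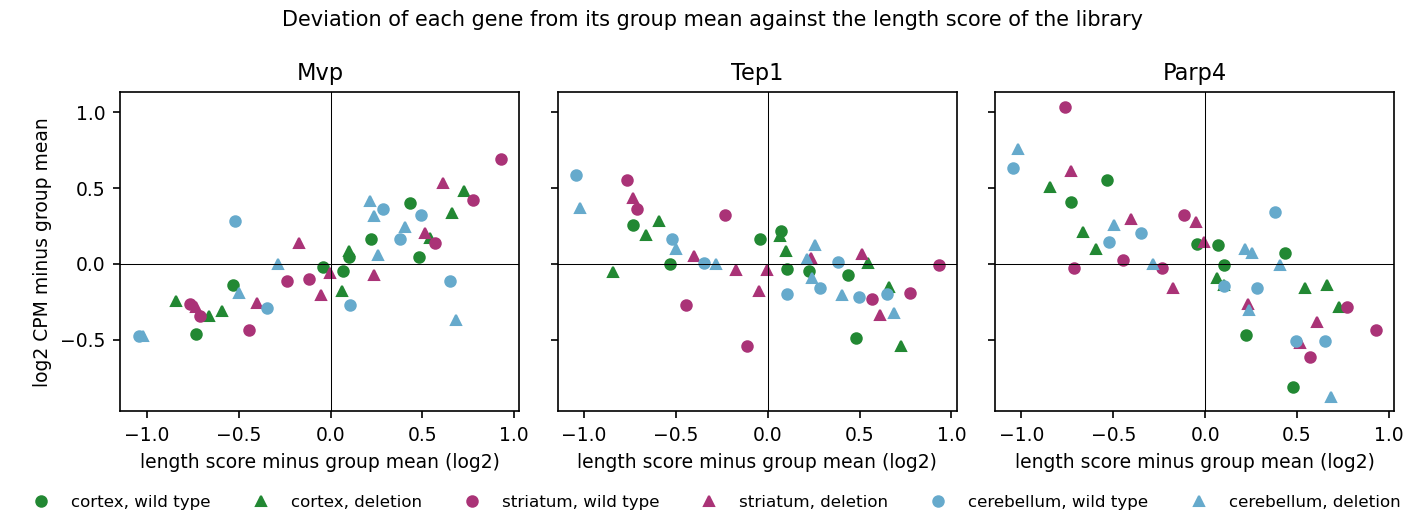
Deviation of log2 CPM from the group mean, for each vault gene and each of 48 libraries, against the deviation of the library's length score, both on a log2 scale; colours give the tissue and shapes the genotype. The correlation is positive for Mvp (r = 0.76) and negative for Tep1 (-0.67) and Parp4 (-0.79).

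The ranges of the score overlapped between the genotypes, and no test of their difference was run. For deletion and wild type, its mean was -0.10 ± 0.63 and 0.10 ± 0.43 (SD, n = 8) in cortex, 0.04 ± 0.45 and -0.04 ± 0.67 in striatum, and 0.02 ± 0.56 and -0.02 ± 0.58 in cerebellum. With the score as a covariate, an alternative added after seeing the data, the log2 fold change of Mvp was -0.96 ± 0.08 in cortex, -1.08 ± 0.09 in striatum and -1.30 ± 0.14 in cerebellum (edgeR adjusted p = 2.60e-06, 9.11e-06 and 0.000119). With the GC score it was -0.97 ± 0.08, -0.98 ± 0.10 and -1.26 ± 0.13. The fall of Mvp was thus about as large with the score in the fit, and its standard error was smaller in each tissue. Tep1 and Parp4 were not called with either score, and the Parp4 value in cortex, which was 0.06, became -0.01 with the length score.

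Marker lists of other cells were set beside the vault genes, and no blood or microglial marker was called by genotype in edgeR. At an unadjusted p under 0.05 there were 5 blood and 3 microglial markers in striatum, 1 blood marker in cerebellum and none in cortex. Blood markers, 5 genes of haemoglobin and haem synthesis, had positive log2 fold changes in 5 of 5 cases in each tissue, with medians of 0.76, 1.15 and 0.95. Their summed level ran from 18.2 to 458 CPM in deletion and 33.1 to 88.7 CPM in wild-type cortex, from 14.2 to 356 and 18.0 to 63.4 CPM in striatum, and from 43.1 to 642 and 46.2 to 129 CPM in cerebellum. The medians were 88.1 and 67.0 CPM in cortex, 57.8 and 32.3 in striatum, and 127 and 82.1 in cerebellum. Deletion animal D804 was the highest in each tissue, with mean log2 blood marker levels of 5.95, 5.58 and 6.43. No other deletion library exceeded 4.39, and the highest wild-type libraries had 3.42, 2.87 and 3.87. The 5 genes were measured in the same libraries and are not 5 independent cases, and no fold change without D804 is given here. Within groups, the median correlation of these 5 genes was 0.67 with Mvp, -0.58 with Tep1 and -0.55 with Parp4. Microglial markers were positive in 9, 10 and 10 of 10 genes, with medians of 0.11, 0.24 and 0.18. Their median correlation was 0.28 with Mvp and -0.59 with both Tep1 and Parp4. The summed microglial level ran from 493 to 722 CPM in deletion and 495 to 579 CPM in wild-type cortex, from 412 to 684 and 321 to 494 CPM in striatum, and from 166 to 358 and 150 to 328 CPM in cerebellum. No marker of either list was at 0 throughout a group. Some other lists went the other way. Median correlations with Mvp, Tep1 and Parp4 were -0.44, 0.18 and 0.36 for endothelium and pericytes, and -0.39, 0.29 and 0.35 for astrocytes. For the oligodendrocyte lineage they were 0.15, -0.32 and -0.34. The part of any of these cells in the vault gene values was not tested.

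Regional markers were examined in the same way. In cortex, 9 of 9 striatal neuron markers had positive log2 fold changes, with a median of 0.53 and none called, and their sums were 538 to 3711 CPM in deletion and 249 to 2196 CPM in wild type. Leaving out the 7 cortex libraries low in these markers, which ended the Mvp call, left 5 deletion and 4 wild-type libraries. Those left were all higher in striatal markers than any of the 7. Tep1 then had -0.37 ± 0.15 and Parp4 -0.32 ± 0.15 (edgeR adjusted p = 0.579 for both), with the sign of Parp4 reversed. In striatum, none of 8 tested choroid plexus markers was positive (median -1.97), with sums of 179 to 314 CPM in deletion and 215 to 7745 CPM in wild type. These include the 2 wild-type libraries without which the Mvp call in striatum ended. Without the 1 thalamic library, Mvp had -1.10 ± 0.18 (adjusted p = 0.0197), and the call held. Also in striatum, 9 of 9 striatal neuron markers were positive (median 0.50), and 2 of 8 cortical neuron markers (median -0.84), with none called. Cortical exceeded striatal markers in mean log2 level in wild-type striatum of W805 (4.41 and 4.30), W813 (5.15 and 3.91) and W815 (5.86 and 5.29). Cortical markers were the lower in every other striatum library. No rule was set on cortical markers in striatum, although W813 is 1 of the 2 libraries set apart for high choroid plexus markers. The part of tissue makeup in these values was not tested.

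Other genes were followed in 5 lists, chosen by gene family, complex, reported binding, pathway or shared domain. No member of these lists was called in either direction by edgeR in any tissue, where 0.13%, 0.128% and 0.138% of all genes were called. At an unadjusted p under 0.05, 3 of 58 list members were found in cortex, where 2.03% of all genes tested had such a p. None was found in striatum or cerebellum, where the shares of all genes were 3.32% and 2.08%. Those named here were not called by DESeq2 or limma-voom either.

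The first list held 20 tested poly(ADP-ribose) polymerases and glycohydrolases, the enzyme family of Parp4. Of these, 12 had positive values in cortex, 7 in striatum and 9 in cerebellum, and the medians were 0.07, -0.03 and -0.04, against 0.0038, -0.0060 and -0.0050 over all genes tested. Tiparp, a polymerase induced by the dioxin receptor, had the smallest p in cortex and in striatum. In cortex its level was 22.2 ± 9.08 CPM with the deletion and 15.2 ± 2.77 CPM without (SD, n = 8). The log2 fold change was 0.53 ± 0.21 there and 0.34 ± 0.18 in striatum. Parp14 had 0.35 ± 0.16 in cortex. The antiviral gene Zc3hav1 had 0.28 ± 0.17 in striatum and 0.21 ± 0.13 in cerebellum, where Parp2, a DNA repair polymerase, had -0.20 ± 0.13.

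The second list held 15 genes of telomerase and of shelterin, the complex that protects telomeres, chosen because Tep1 was found with telomerase. Positive values were seen in 5, 11 and 7 genes, with medians of -0.05, 0.04 and -0.02. Pot1b, a shelterin subunit, had 0.51 ± 0.24 in cortex and 0.36 ± 0.22 in cerebellum. Terf1, which binds the telomere repeat, had -0.18 ± 0.10 in cortex. The helicase gene Rtel1 had -0.13 ± 0.10 in striatum and -0.30 ± 0.14 in cerebellum, and Naf1, an assembly factor of telomerase, 0.14 ± 0.11 in striatum.

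Reported binding partners of Mvp made the third list, with 6 tested genes and medians of 0.10, -0.07 and -0.01. The estrogen receptor gene Esr1 had 0.67 ± 0.46 in cortex and 0.42 ± 0.63 in cerebellum, where its mean was 1.003 CPM in deletion. Src had -0.11 ± 0.10 in striatum and the phosphatase gene Ptpn11 -0.07 ± 0.09 in cerebellum.

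The fourth list held 15 genes of interferon gamma signalling, with Gria1, an AMPA receptor subunit gene. Medians were 0.07, -0.06 and -0.01, and 10, 6 and 6 values were positive. Stat3 had 0.16 ± 0.07 in cortex, with means of 55.6 and 49.7 CPM in deletion and wild type, and Gria1 had 0.26 ± 0.16. In striatum, the signalling inhibitor gene Socs3 had -0.28 ± 0.19 and Irf9 0.11 ± 0.09. In cerebellum, Stat2 had -0.33 ± 0.18 and Irf9 0.16 ± 0.10. The last list held 2 genes of RNA-binding autoantigens: Trove2, whose protein shares a domain type with Tep1, and Ssb, which encodes the La protein that binds vault RNA. Trove2 had 0.29 ± 0.23, 0.21 ± 0.18 and -0.02 ± 0.28 in cortex, striatum and cerebellum, and Ssb -0.02 ± 0.07, 0.06 ± 0.06 and 0.00033 ± 0.07.

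More members of these lists were called between wild-type tissues. Of the polymerase list, 7 of 20 were called higher and 2 lower in cerebellum than in cortex, with a median of 0.24 against 0.04 over all genes, of which 24.2% were called higher and 24.7% lower. The telomere list had 6 of 15 higher and 2 lower (median 0.17), the binding partners 1 of 6 higher and 4 lower (median -0.58), and the interferon gamma list 5 of 15 in each direction (median 0.08). Against striatum, the polymerase list had 8 higher and 2 lower in cerebellum, the telomere list 6 and 1, the interferon gamma list 4 and 6, and the binding partners 0 and 3. Of all genes, 22.4% were called higher and 25.5% lower there. The vault genes, 3 of 3 higher in cerebellum than in cortex, had a median of 1.73.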

How the data were processed

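RNA from 3 brain tissues of 16 mice was sequenced after stranded mRNA library preparation, per the labels' protocols. The deposited values are raw counts per gene in 1 table. The submitters' processing notes name STAR 2.4.2a, FastQC 0.10.1, SAMtools and Picard, and the builds GRCm38 and mm8 without a role. How reads were counted, with which annotation and whether by strand, is not given in the sources used here. Of 47161 features, 92 were ERCC spike-ins (0.0614 to 1.09% of counts), which were left out. Names and coordinates came from GENCODE vM21, which matched 46488 of 47069 genes.

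Counts were analysed in R 4.3.3 with edgeR 4.0.16 (TMM, filter on low counts by group, robust quasi-likelihood fit, sex as a covariate), with P-values adjusted by Benjamini-Hochberg over all genes tested. The SE is the absolute log2 fold change over the square root of F. Log2 CPM levels use a prior count of 2. Alternatives were DESeq2 1.42.0, limma-voom (limma 3.58.1), other scalings, no filter, no sex term, each sex alone, each replicate left out, libraries that stood apart left out, and length or GC scores as covariates. Libraries stood apart where thalamic markers exceeded striatal ones or choroid plexus markers were more than 1 log2 unit above the median (striatum), or striatal markers more than 1 below it (cortex). Only the genotype fit in cortex was tested on simulated counts. There the genes varied independently of one another, with no shared variation by transcript length or GC content. Intervals are 95%. The labels do not say whether the animals share litters.

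The 3 genes, the lists and the tests were chosen with earlier results of these data known. Genes named besides the 3 were, by rule, the 2 genes of smallest p in each list and tissue where none was called, the 2 tested genes on each side of Mvp, and for each vault gene the 5 most and 2 least correlated genes. The values of 1 gene that this rule names are not reported here. Same-numbered libraries come from 1 animal, per the labels. Between tissues of 1 animal, deviations correlated at a median of 0.440 (striatum and cortex), 0.495 (cerebellum and cortex) and 0.256 (cerebellum and striatum), and those of other animals -0.071, -0.013 and -0.047.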

Additional observations from a re-analysis of the deposited data

Results flagged for a closer look

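Of 18 groups (3 genes in 6 groups of 8 libraries), 3 held a library far from the others by Dixon's test at the 95% level, which chance alone gives in about 1 in 20 groups. Tep1 in deletion striatum was 13.0 CPM in animal D812, where the next library was at 10.1 CPM, and the gap was 0.543 of the group's range. Tep1 in wild-type cerebellum was 24.1 CPM in animal W805, against 18.0 CPM in the next library (0.597 of the range). Parp4 in wild-type striatum was 18.5 CPM in animal W816, against 11.3 CPM in the next (0.572 of the range). This last library is 1 of the 2 wild-type striatum libraries with high choroid plexus markers, and without it the Parp4 log2 fold change in striatum was 0.03 in place of -0.17.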

How the results depend on the processing

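The fall of Mvp kept its sign under every alternative run. Its adjusted p ran from 2.57e-08 to 0.9999 in cortex, from 4.99e-07 to 0.99995 in striatum and from 3.69e-11 to 0.9999 in cerebellum. The call was lost with 4 animals a group. In males alone the log2 fold change was -0.88, -1.16 and -1.24 in cortex, striatum and cerebellum, and in females alone -1.22, -0.94 and -1.32. It was also lost without the cortex libraries low in striatal markers (-0.73) and without the choroid plexus libraries in striatum (-0.98). Leaving out each replicate in turn kept the call in all 16 fits of each tissue, with Mvp at -1.13 to -0.96, -1.11 to -0.95 and -1.36 to -1.22. Males alone gave 2, 4 and 1 genes called and females alone 6, 1 and 1, against 22, 22 and 23 with all animals. In striatum, DESeq2 called 42 genes and the fit of all 48 libraries 36, and cortex without the low libraries gave 6.

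Tep1 and Parp4 were not called by genotype under any alternative, and near 0 signs changed. Parp4 in cortex was -0.0128 with the length score and -0.32 without the low libraries. It ran from -0.0271 to 0.18 in cortex and from -0.25 to 0.0326 in striatum as each replicate was left out. Among tissue differences of the genotype effect, Mvp in striatum minus cortex was -0.0886 with the length score. Tep1 in striatum minus cortex and cerebellum minus cortex was -0.00349 and -0.0022 with DESeq2 size factors. For cerebellum minus striatum, Tep1 was -0.00715 with the length score and Parp4 -0.0542, and Parp4 was -3.41e-05 with DESeq2 size factors. With the animal as a replicate block, the 2 genes were at -0.0104 and -0.0354 there, and Mvp at -0.24. The block changed no call, and it could not be used within a tissue, where each animal has 1 library. Between wild-type striatum and cortex, Tep1 and Parp4 lost their calls with no filter on low counts (0.46 and 0.65) and without the libraries that stood apart (0.25 and 0.26), where Mvp was at 0.0700.

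Other values that changed sign were small or imprecise. In cortex, Ssb was 0.0341 in females alone and ran from -0.0506 to 0.0127 with each replicate left out, and Gria1 and Trove2 were at -0.13 and -0.24 without the low libraries. In striatum, Ssb was -0.0105 in males alone and Irf9 -0.00637 in females alone. In cerebellum, Ssb was -0.000321 with DESeq2, -0.000412 with its size factors, -0.00161 with limma-voom, -0.0527 in females alone and -0.0105 with the GC score, and ran from -0.0246 to 0.0390 over replicates left out. Trove2 there was 0.00771 with upper quartile scaling, 0.00832 without sex, 0.0282 in the fit of all libraries and 0.14 in males alone, and ran from -0.19 to 0.16. The cause of these changes was not tested. The 95% intervals of Tep1 and Parp4 give the differences that remain compatible with these data, and no limit of detection was computed.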
